A study of Rattus norvegicus with 4 samples.

Results

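Msln, Upk3b, Upk1b, Krt7, Krt8, Krt18, Krt19, Lrrn4, Wfdc21 and Cdh1, 10 genes that mark mesothelium or simple epithelium, were followed in cultured rat testicular peritubular myoid cells, the flat contractile cells around the seminiferous tubule. Probes were taken where the gene name in the scanner files was the gene's symbol or an older name of it, or, for Lrrn4, a provisional name whose accession belongs to the gene. In this way 9 of the 10 genes were found, on 11 of the 41012 probes of the array that are not controls, and no probe carried a name of Upk3b. The group was chosen by measured values, since it was put together after the level of Msln was seen higher on the arrays numbered 2. The differences between array numbers given here are therefore a description and carry no test.

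The 2 testosterone arrays held RNA from cells given 1e-07 M testosterone in pulses, and the 2 control arrays held RNA from control cells, as the sample titles and sources name them. The treatment text repeated for every sample mentions testosterone for the controls too, and a vehicle is not given in the sources used here. All cells came from the testes of 40-day-old male rats and were cultured for 4 days in a medium with defined growth factors. Strain and the number of animals are not given. Each group had an array numbered 1 and an array numbered 2 in the sample titles, and nothing says whether the numbers mark separate animals or cultures, so a p-value here reflects array-to-array spread that may be technical. All 4 arrays lay on 1 slide and had 1 scan time, with number 2 at positions 1 and 2 and number 1 at positions 3 and 4, so array number and slide position cannot be told apart.

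Mesothelium is the simple epithelium that lines the body cavities and also covers the testis. It carries mesothelin on its surface and, like other simple epithelia, builds its cytoskeleton from keratin filaments, in which a type II keratin (Krt7 or Krt8) pairs with a type I keratin (Krt18 or Krt19). Cells of mesenchymal type such as peritubular myoid cells use vimentin filaments and carry N-cadherin, while E-cadherin, the product of Cdh1, is an epithelial cadherin. Vimentin and N-cadherin are not taken here as absent from mesothelium. Bulk RNA cannot tell fewer cells of a type from less RNA per cell.

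Levels are log2 processed signals minus the 75th percentile of each array, so a value is comparable between arrays for the same probe and not between probes. Well above background were 68.2% of spots with testosterone and 66.6% in control on the arrays numbered 2, against 63.5% and 63.5% on those numbered 1. The lowest level with that flag lay between -5.68 and -5.51 on the 4 arrays. Columns 57 to 85 of control replicate 1 held 67 spots that had dropped out there while bright on the other arrays, against 0 or 1 on each of the others. Of the 11 probes 5 lay in those columns, and 0 had another such spot within 10 rows and 2 columns. All 11 were free of saturation and of outlier flags on every array. Among the markers of the labelled cell type, Actg2, Des, Myl9 and Tpm2 were well above background on all 4 arrays, Tagln on all 4 at -2.84 and -2.75 (number 2) against -4.63 and -4.47 (number 1), and Cnn1 on none. Acta2 and Myh11 had no probe under those names.

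The regions upstream of Wfdc21, Upk1b and Krt8 are shown because Wfdc21 and Upk1b were among the genes higher on the arrays numbered 2 and Krt8 was not. RefSeq (build GRCr8) gave an upstream region for 6 of the 10 genes. Each run is the 250 bases before the gene's start, on the gene's strand, and capitals mark matches to a motif. The motifs searched on both strands were CATTCC (the MCAT motif bound by TEAD factors, known to act in the human MSLN promoter), TATAAA (the TATA box), CCAAT (a common promoter element), GGGCGG (the GC box), AGAACA (a core bound by steroid receptors) and CAGGTG (an E-box bound by Snail factors). The regions lie at chr10:69125086-69125335 on the plus strand for Wfdc21, at chr11:75459131-75459380 on the plus strand for Upk1b and at chr7:135010340-135010589 on the minus strand for Krt8.
Wfdc21: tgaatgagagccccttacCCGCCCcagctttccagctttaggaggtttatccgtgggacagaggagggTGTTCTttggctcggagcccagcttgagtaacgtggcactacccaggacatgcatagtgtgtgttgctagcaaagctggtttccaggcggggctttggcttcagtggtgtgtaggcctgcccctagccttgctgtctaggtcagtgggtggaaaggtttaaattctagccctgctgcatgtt
Upk1b: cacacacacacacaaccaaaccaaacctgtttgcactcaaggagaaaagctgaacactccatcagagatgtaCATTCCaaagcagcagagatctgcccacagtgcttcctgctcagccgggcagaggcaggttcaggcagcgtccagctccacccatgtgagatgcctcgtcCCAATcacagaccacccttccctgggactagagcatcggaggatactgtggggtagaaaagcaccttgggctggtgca
Krt8: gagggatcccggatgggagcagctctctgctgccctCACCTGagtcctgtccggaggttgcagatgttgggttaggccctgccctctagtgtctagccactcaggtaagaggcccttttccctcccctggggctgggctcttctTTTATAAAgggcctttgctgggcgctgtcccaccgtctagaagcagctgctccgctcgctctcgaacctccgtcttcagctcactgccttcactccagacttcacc
Wfdc21 held the GC box and the steroid receptor core, both as their reverse complements (CCGCCC and TGTTCT). Upk1b held CATTCC and CCAAT, and Krt8 held TATAAA, overlapping its own reverse complement TTTATA, and the E-box as CACCTG. Of all 33469 upstream regions of this length 12.1% held CATTCC or its reverse complement, 12.9% TATAAA, 34.0% CCAAT, 30.5% GGGCGG, 17.5% AGAACA and 15.9% CAGGTG. No motif was shared by all 3 of these regions. CATTCC also stood upstream of Lrrn4, which was lower on both arrays numbered 2, and not upstream of Wfdc21.

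Detection divided the genes into those present on every array and those at or near background. Msln, Upk1b, Krt8, Krt19, Lrrn4 and Wfdc21 were well above background on all 4 arrays, each with 1 probe. Cdh1 and Krt18 were well above background on 2 arrays, and Krt7 on none. The second Upk1b probe and the second Krt18 probe were below that limit on every array too. The Krt18 probes are placed by the files on chromosomes 2 and 10 of rn4, whereas the gene lies on chromosome 7 in GRCr8, so their target is uncertain.

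**Figure D1:**
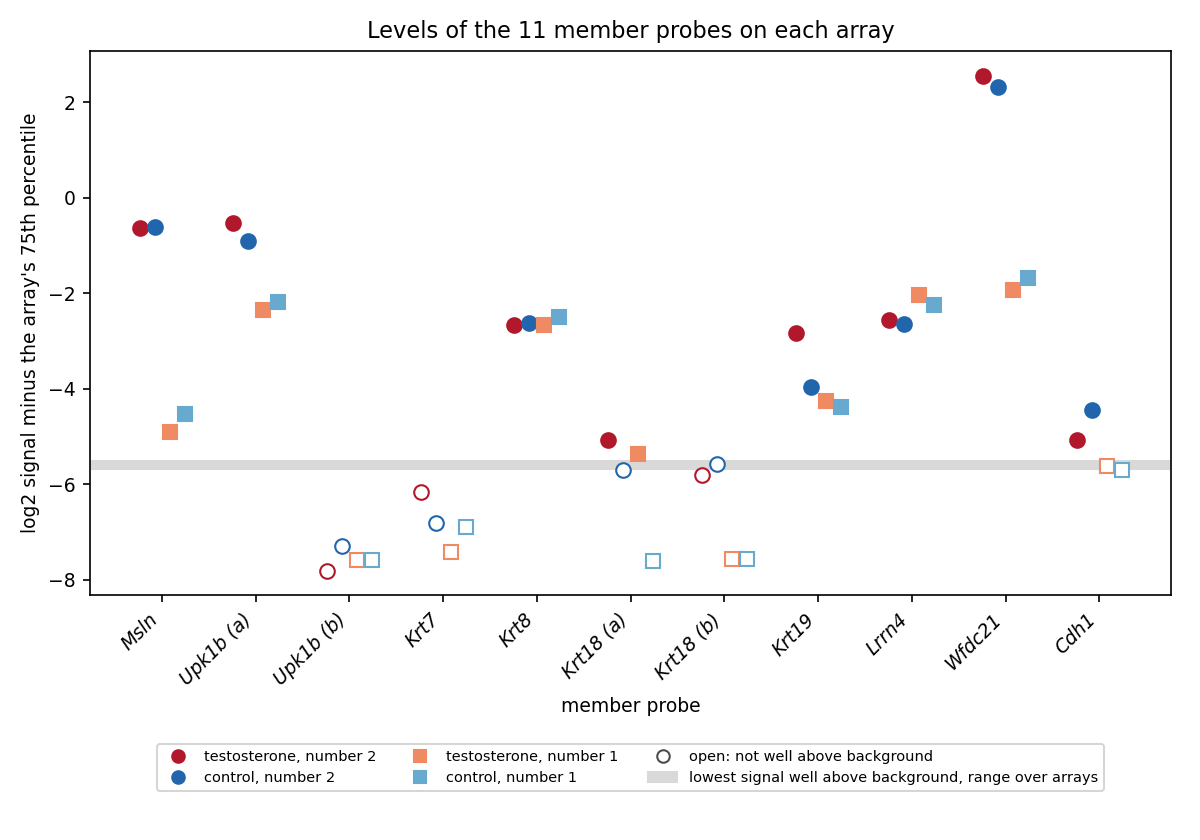
Levels (log2 signal minus the array's 75th percentile) of the 11 probes on the 4 arrays, 1 point per array, with filled points well above background and open points not; the grey band spans the lowest level well above background on the 4 arrays, -5.68 to -5.51, and (a) and (b) are the 2 probes of a gene. Msln and Wfdc21 are high on both arrays numbered 2 and low on both numbered 1, Krt8 is level across the arrays, and Krt7 and the second Upk1b probe lie under the band on all 4 arrays.

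Msln encodes mesothelin, a glycoprotein anchored to the surface of mesothelial cells (probe on chromosome 10, 15017206 to 15017265, rn4). Its level was -0.62 with testosterone and -0.60 in control on the arrays numbered 2, against -4.91 with testosterone and -4.53 in control on the arrays numbered 1. The number 2 arrays averaged -0.61 ± 0.02 and the number 1 arrays -4.72 ± 0.27 (SD, n = 2 each), a difference of 4.11 or 17.2-fold. Both number 2 arrays were far above both number 1 arrays, and arrays of the same number lay close together. The difference by number was 4.29 between the testosterone arrays and 3.93 between the control arrays. The processed signals behind these levels were 229 and 262 on the arrays numbered 2, against 15.3 and 18.2 on those numbered 1, so the low values were close to the detection limit. With normexp background correction and quantile normalization the difference was 2.12.

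Wfdc21, a secreted protein with a whey acidic protein domain that the files describe as a WDNM1 homolog, had the same profile (chromosome 10, 71975686 to 71975745, rn4). It stood at 2.56 with testosterone and 2.32 in control on the arrays numbered 2, against -1.93 with testosterone and -1.69 in control on those numbered 1. The difference was 4.25, and was 4.49 (22.5-fold) between testosterone arrays and 4.01 (16.1-fold) between control arrays. As for Msln, the groups by number did not overlap, and here the signals, 2088 and 1987 on number 2 against 121 and 130 on number 1, were well clear of background on every array. In a ranking of all 22753 genes measured for this comparison, Wfdc21 was at place 23 and Msln at place 25 from the top.

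Upk1b encodes a tetraspanin of the uroplakin plaques of the urothelium (chromosome 11, 63767255 to 63767314, rn4). The detected probe read -0.53 with testosterone and -0.90 in control on the arrays numbered 2, against -2.36 and -2.18 on the testosterone and control arrays numbered 1. Both number 2 arrays were higher, by 1.55 on average or 2.93-fold, and 3.01% of all genes had a difference at least as large. It lies in column 82, among the columns where control replicate 1 lost spots, and that array read higher than testosterone replicate 1. Between the testosterone arrays, without control replicate 1, the difference was 1.83, and with normexp and quantile normalization it was 0.99.

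Of the 4 keratins followed, Krt8 and Krt19 were well above background on all 4 arrays. Krt8, the main type II keratin of simple epithelia, did not follow Msln (chromosome 7, 140716967 to 140717949, rn4). Its levels were -2.66 with testosterone and -2.63 in control on the arrays numbered 2, against -2.67 with testosterone and -2.49 in control on those numbered 1. The 4 values lay close together and the numbers overlapped, with a difference of -0.06.

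Krt19, a type I keratin of simple epithelia, was at -2.82 with testosterone and -3.95 in control on the arrays numbered 2, against -4.25 and -4.37 on the testosterone and control arrays numbered 1 (chromosome 10, 89081437 to 89081496, rn4). Its difference by number was 0.92 and was carried mostly by testosterone replicate 2. It was 1.43 between the testosterone arrays and 0.42 between the control arrays, and 0.36 when testosterone replicate 2 was left out. Of all genes 8.39% had a difference at least as large, and the normexp and quantile value was 0.26.

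Krt7, the type II keratin of mesothelium and ductal epithelia, was below the detection limit on every array, with levels of -6.16 with testosterone and -6.80 in control on the arrays numbered 2, against -7.42 and -6.89 on those numbered 1 (chromosome 7, 140175626 to 140175685, rn4). Krt18, the type I partner of Krt8, which immature Sertoli cells also carry, was detected with 1 of its 2 probes and on both testosterone arrays. That probe read -5.36 and -5.08 with testosterone, against -7.60 and -5.71 in control, in the order of replicates 1 and 2. Such levels lie around the detection limit.

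Lrrn4, a leucine-rich repeat membrane protein used as a mesothelial marker in the mouse, went the other way (chromosome 3, 120668197 to 120668256, rn4). It read -2.57 with testosterone and -2.65 in control on the arrays numbered 2, against -2.03 and -2.25 on the testosterone and control arrays numbered 1. Both number 2 arrays were lower, by 0.47 on the log2 scale, and 7.80% of all genes were at least as far down.

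Cdh1, E-cadherin of the epithelial adherens junction, was well above background on the arrays numbered 2 and not on those numbered 1 (chromosome 19, 36511853 to 36511912, rn4). Its levels were -5.07 with testosterone and -4.44 in control on the arrays numbered 2, against -5.61 with testosterone and -5.71 in control on those numbered 1. Set against the detection limit, the mean of Cdh1 was 1.71-fold higher on number 2 under this scaling. Without that limit Cdh1 was 1.45-fold higher between the testosterone arrays and 2.40-fold between the control arrays. With normexp and quantile normalization its difference was 0.09, against 0.90 without.

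Of the 6 genes well above background on all 4 arrays, Msln, Wfdc21, Upk1b and Krt19 were higher on both number 2 arrays, Lrrn4 was lower on both and Krt8 overlapped. Many genes of the array parted by number. Both number 2 arrays lay above both number 1 arrays for 40.7% of all genes and below them for 24.3%. This split turned with the scaling, to 23.6% above and 40.9% below with each array centred on its median, and to 28.5% and 33% with normexp and quantile normalization. Nothing is read from the marker genes' count, since this difference chose them. At least 2-fold, 6.76% of all genes were higher and 1.04% lower, and Msln, Wfdc21 and Upk1b were in the first of these groups. The median difference of all genes was 0.10, and -0.10 with each array centred on its median, a shift of the scale that is small beside the differences of these 3 genes.

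The 5 genes whose centred levels lay nearest to those of Msln over the 4 arrays, among 10735 other named genes that were detected and not saturated on all of them, were led by Wfdc21 at a root mean square distance of 0.13. Next came Tnp1 at 0.31, the transition protein that replaces histones in spermatids, and Fabp9 at 0.31, a fatty acid-binding protein of the testis. Spetex2f at 0.32, of a multigene family whose copies the probe may not tell apart, and C3 at 0.39, the central complement component, completed the 5. C3 read 7.14 with testosterone and 6.76 in control on the arrays numbered 2, against 3.49 and 3.57 on those numbered 1. Tnp1 read 1.59 with testosterone and 1.59 in control on the arrays numbered 2, against -3.42 and -2.80 on those numbered 1. Likeness over 4 arrays is a description of these arrays.

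**Figure D2:**
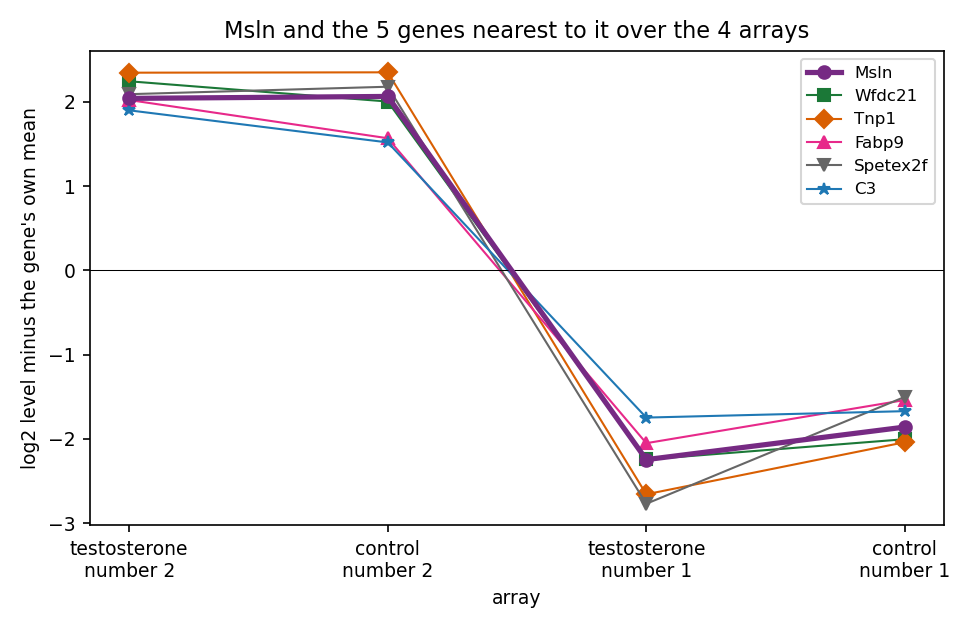
Levels of Msln and of the 5 genes nearest to it on the 4 arrays, each as log2 level minus the gene's own mean; lines join the values of a gene, and the arrays have no order. All 6 genes are above their mean on both arrays numbered 2 and below it on both numbered 1.

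Germ cell and endothelial markers were among the lists with the highest median differences by array number. Measured here means well above background on both arrays of either number. Of 10 measured germ cell markers all 10 had positive differences, 8 with both number 2 arrays above both number 1 arrays (40.7% of all genes), and their median difference was 2.13. Only 3 of the 10 were well above background on all 4 arrays. The others entered through the arrays numbered 2, where their means were higher, so the counts and the median lean upward. Between the testosterone arrays Ddx4 went the other way, at -3.83 on number 2 against -2.56 on number 1. Its positive difference rests on control replicate 1, which read -7.59 against -3.96 on control replicate 2. The Ddx4 probe lies in column 78, among the columns where control replicate 1 lost spots. The summed level of the 10 was 2.72 with testosterone and 2.72 in control on the arrays numbered 2, against -0.80 and -0.79 on those numbered 1. A sum of this kind mostly follows the brightest probes of its list. Acrv1 and Pgk2 were not well above background on any array. Endothelial markers had a median of 0.68 over 7 measured, with summed levels of 1.42 and 1.69 on the arrays numbered 2, against 0.74 and 0.99 on those numbered 1, and Tek not detected. Pecam1 and Emcn were detected on the arrays numbered 2 alone, so this median, which is the value of Pecam1, leans upward. Rete testis and epididymal markers had a median of 0.17 over 5, with Emx2 at 0.17 and Lcn2 at 2.23. The summed levels of the 5 were 3.30 and 3.20 on the arrays numbered 2, against 2.37 and 2.38 on those numbered 1, and Adam7, Slc9a3 and Defb1 were not detected. Leydig cell markers had a median of -0.30 over 7, with 6 lower on both number 2 arrays (24.3% of all genes) and 1 higher (40.7%). Of the 7, 2 were at least 2-fold lower (1.04% of all genes). Hsd17b3 entered through the arrays numbered 1 alone, where it was higher. The summed Leydig levels went against the median, at 6.93 and 6.72 on the arrays numbered 2, against 6.57 and 6.67 on those numbered 1. Sertoli cell markers had a median of -0.01 over 10 (Sox9 was well above background on testosterone replicate 2 alone), macrophage markers -0.08 over 8, and peritubular and smooth muscle markers 0.24 over 11. The part of these cells in the values of Msln and Wfdc21 was not tested.

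Other mesothelial genes did not share the profile as a list. Of 18 listed genes 16 had a probe and 9 were measured, 4 with positive and 5 with negative differences by number, at a median of -0.06 beside 0.10 for all genes. The mesothelial transcription factors Wt1 and Bnc1 were not well above background on any array, nor were Gpm6a, Crb2, Aldh1a2 and Cldn15, and no probe carried the name Muc16 or Ildr2. Calb2, the calcium-binding protein calretinin, stood at 4.37 with testosterone and 4.16 in control on the arrays numbered 2, against 4.41 and 4.58 on those numbered 1. Pdpn, podoplanin, stood at 0.06 and -0.26 on the arrays numbered 2, against -0.02 and 0.17 on those numbered 1. Calb2, Pdpn and Efemp1, a fibulin of the matrix, differed by -0.23, -0.17 and -0.06. Slpi, a secreted protease inhibitor with whey acidic protein domains, differed by 2.68, and Rarres2, the secreted chemerin, by 0.52. Of the 9 measured, Slpi, Rarres2, Gata6 and Rspo1 were higher on both number 2 arrays (40.7% of all genes), and Calb2 and Nkain4 lower (24.3%). Gata6, Rspo1 and Nkain4 were named after their values were seen. Wt1, Bnc1 and Krt7 were undetected, which gives no direction, and Krt8 did not follow Msln. The list thus went both ways and a mesothelial source was not tested, so Msln and Wfdc21 are named here by gene.

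Other genes of the uroplakin and whey acidic protein families gave a divided picture. Wfdc18, a whey acidic protein domain gene named after its values were seen, was detected on both arrays numbered 2 and on neither numbered 1. It read -2.15 with testosterone and -2.29 in control on the arrays numbered 2, against -5.56 and -5.56 on those numbered 1, at least 9.93-fold higher on number 2. Wfdc2, Wfdc1 and Wfdc3 differed by 0.27, 0.08 and -0.10, and Upk3a and Wfdc5 were not detected.

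Of 35 other keratins 21 had a probe, 5 were well above background on all 4 arrays and 12 on none. Of the 7 measured by number, 5 had positive and 2 negative differences. The arrays parted for 2 of them, 1 higher on number 2 (40.7% of all genes) and 1 lower (24.3%). Krt12 and Krt76, both with positive differences, entered through the arrays numbered 2 alone. Krt5 and Krt14, the keratins of basal epithelial cells, differed by -0.10 and 0.18, Krt1 of the upper epidermis by 0.27 and Krt79 by -0.46. Of 43 epithelial junction and identity genes 41 had a probe and 26 were measured, with 13 positive and 13 negative differences and a median of -0.02. Ehf, an epithelial transcription factor, and Cldn1, a tight junction claudin, were the 2 at least 2-fold higher on number 2 (6.76% of all genes), at 1.52 and 1.59. Both were named after their values were seen. Epcam, an epithelial adhesion molecule, was well above background on testosterone replicate 2 alone, at -5.02. The catenins Ctnna1, Ctnnb1 and Ctnnd1, which link cadherins to actin, differed by -0.72, -0.51 and 0.36, and Ppl, periplakin, by -0.64.

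Mesenchymal genes were detected broadly. Of 16 such genes 14 were well above background on all 4 arrays, with a median difference by number of 0.13. At least 2-fold apart were 0 of them, beside 6.76% higher and 1.04% lower of all genes. Vim, vimentin, stood at 6.10 with testosterone and 6.27 in control on the arrays numbered 2, against 6.53 and 6.60 on those numbered 1. Cdh2, N-cadherin, read -1.15 and -1.30 on the arrays numbered 2, against -1.61 and -1.70 on those numbered 1. Fn1, fibronectin, differed by 0.91 and Pdgfra, a platelet-derived growth factor receptor, by -0.002, the Fn1 probe being saturated on 1 array. The S100a4 probe was saturated on all 4 arrays, so its difference has no reliable size, though it is counted among the 14.

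**Figure D3:**
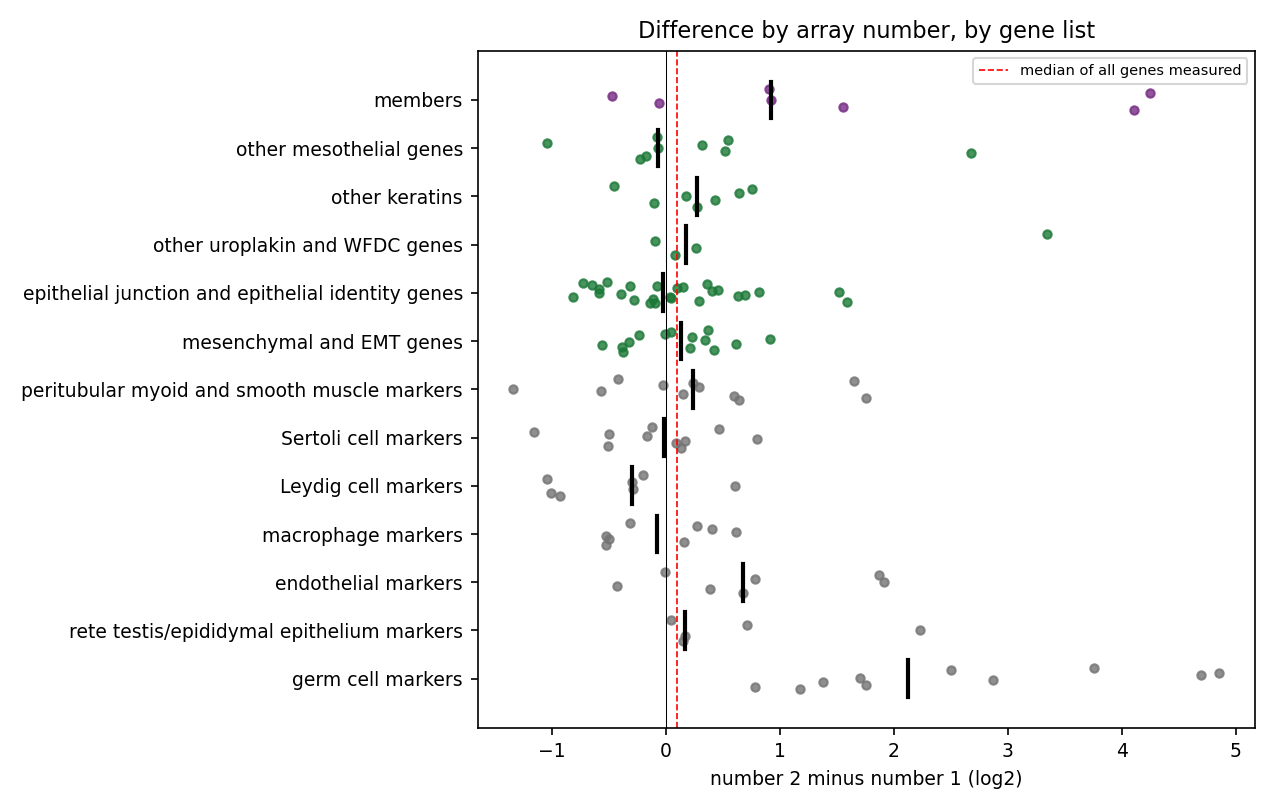
Difference between arrays numbered 2 and numbered 1 (log2, horizontal) for each measured gene of the 10 marker genes (top row) and of 12 other lists, 1 point per gene, with the list's median as a black bar and the median of all genes, 0.10, as a red dashed line. Wfdc21 and Msln are the 2 points beyond 4 in the top row, and the germ cell list has the highest median, 2.13.

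Testosterone was compared with control to see whether these genes were among those it changes. None of the 7 probes tested passed limma's test, with an adjusted p of 1.00 for each, and 0 had an unadjusted p under 0.05. Over all genes 0% were called, and 174 of 22004 had an unadjusted p under 0.05. The testosterone arrays were both higher than the controls for 6.04% of genes and both lower for 9.08%. Among the 7 probes the groups parted for 2, Krt18 above and Krt8 below. The Krt18 probe entered the 7 through the testosterone arrays alone, where it was higher, so the filter favoured its parting upward. An exact permutation test of 2 against 2 arrays cannot give a two-sided p under 0.333, so none is reported.

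For Msln the mean was -2.77 ± 3.03 over the testosterone arrays and -2.56 ± 2.78 over the control arrays (SD, n = 2 each). The difference was -0.20, with a 95% interval from -5.41 to 4.997. The groups overlapped, and the spread within each was that between array numbers. Testosterone minus control was -0.02 within number 2 and -0.39 within number 1. Wfdc21 averaged 0.32 ± 3.18 with testosterone and 0.32 ± 2.84 in control (SD, n = 2), with a 95% interval of the difference from -5.38 to 5.38, and differed by 0.24 within number 2 and by -0.24 within number 1. In the fit that does not pair the arrays, the interval of both genes included large changes in either direction. With the replicate number as a block the intervals ran from -0.68 to 0.27 for Msln and from -0.53 to 0.53 for Wfdc21, but no label says that the numbers pair the arrays.

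Upk1b differed by 0.10 (-1.94 to 2.14), Lrrn4 by 0.15 (-0.62 to 0.92) and Krt8 by -0.11 (-0.60 to 0.39). Krt8 read -2.67 and -2.66 with testosterone, against -2.49 and -2.63 in control, so that the groups parted by a narrow margin. Krt19 differed by 0.63 (-0.78 to 2.04), by 1.13 within number 2 and 0.13 within number 1, and by 0.19 with normexp and quantile normalization. Krt18 differed by 1.43 (-0.34 to 3.21), a size that rests on control values below the detection limit, and was detected on both testosterone arrays and on neither control array. Set against the detection limit, its mean was 1.32-fold higher with testosterone under this scaling. The probe lies in column 77, where control replicate 1 lost spots. No lost spot lay within 10 rows and 2 columns of it, but the nearest was closer than for any other probe of the group. Its own value on control replicate 1, -7.60, could not be judged, since lost spots were those bright on the other arrays. Control replicate 2, at -5.71, was below the detection limit. Without control replicate 1 the difference was 0.48, and without control replicate 2 it was 2.38. With normexp and quantile normalization it was 0.05, and with values under the detection limit set to that limit it was 0.40. Cdh1 and Krt7 were not tested, since neither was detected on both arrays of a treatment group. Cdh1 averaged -5.34 ± 0.38 with testosterone and -5.07 ± 0.90 in control (SD, n = 2).

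**Figure D4:**
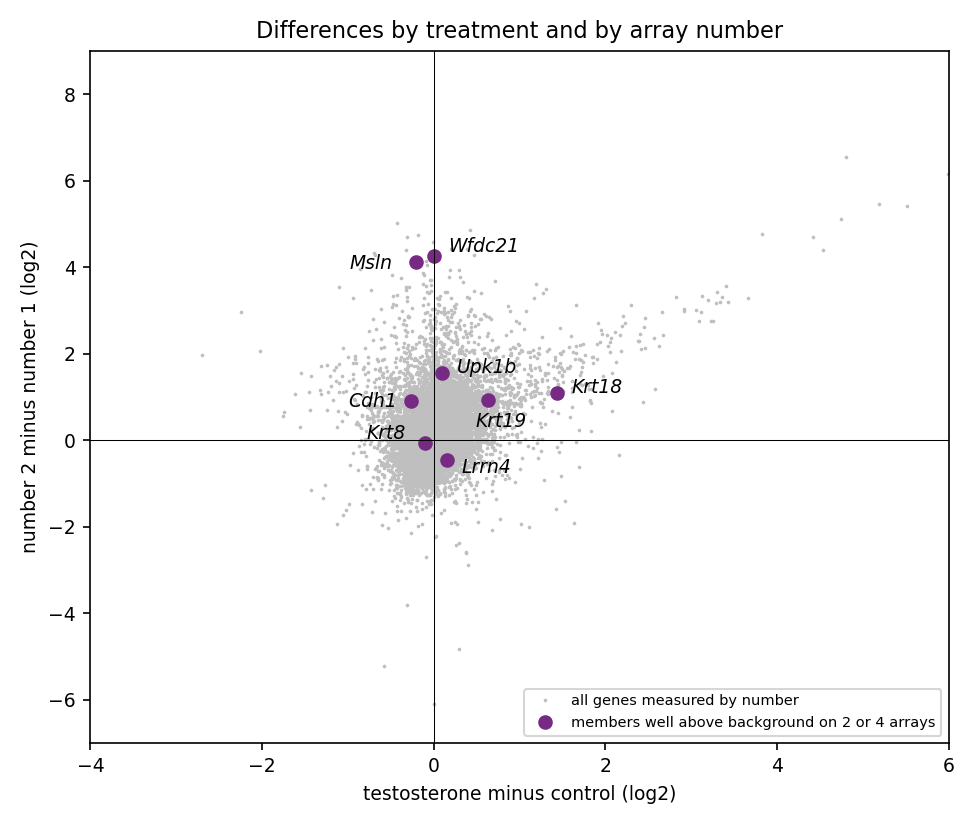
Testosterone minus control (log2, horizontal) against number 2 minus number 1 (log2, vertical) for the 8 marker genes well above background on 2 or 4 arrays (purple) and for the 22753 genes measured by number (grey, of which 3 lie outside the axes). Msln and Wfdc21 lie at 4.11 and 4.25 on the vertical axis and at -0.20 and -0.0001 on the horizontal axis.

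Of the related lists 0 genes passed the test in either direction. Among 9 measured mesothelial genes 4 had positive and 5 negative differences with testosterone (median -0.02), among 5 keratins 2 and 3 (median -0.08), among 26 epithelial genes 12 and 14 (median -0.02) and among 14 mesenchymal genes 7 and 7 (median 0.02), beside a median of -0.01 over all genes. Slpi, whose difference by number was 2.68, differed by -0.05 with testosterone, and Krt15, an epidermal keratin named after its values were seen, by 0.86.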

How the data were processed

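Total RNA was amplified, labelled with Cy3 and hybridised to 4 one-colour Agilent 4x44k rat arrays, per the labels' protocols. Per the file headers, the deposited scanner files, written by Feature Extraction 11.5.1.1 (version 10.5 in the submitters' processing notes), give each spot's processed signal as an intensity and flags of detection, saturation and outliers (0 or 1), with probe positions on build rn4. The deposited table of the series holds the authors' log2 values, which equalled the log2 processed signal minus 8.38 to 8.79 per array.

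Each level was the log2 of the processed signal, less the 75th percentile that such values had on that array. Control and outlier spots were left out, spots of a probe were averaged and the brightest probe stood for a gene. Probes were named by accession, symbol, older symbol or gene ID in RefSeq (GRCr8), and 20470 of 41012 kept the file's name. Lrrn4 was taken through a provisional name whose accession RefSeq gives to it, and Wfdc21 through its gene ID. Tests used limma 3.58.1 (R 4.3.3; lmFit, eBayes, Benjamini-Hochberg, called under 0.05) on probes well above background on both arrays of a group, and were checked on simulated data. Members were read from the fit over all probes and lists from that over genes, named by fixed choice or highest mean level. The genes and lists were chosen with earlier results of these data known. The precision is limited by the number of arrays. Slide and scan were the same for all arrays and so were not fitted as blocks.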

Additional observations from a re-analysis of the deposited data

Results flagged for a closer look

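Testosterone minus control had opposite signs in the array pairs for Upk1b, at 0.37 in number 2 and -0.18 in number 1 (0.55 apart), and for Wfdc21, at 0.24 and -0.24 (0.48 apart). The difference by number had opposite signs for Krt8, at 0.01 between testosterone arrays and -0.14 between control arrays (0.15 apart). With 1 array on each side these differences were not tested. A probe named RGD1306995_predicted, which the files describe as Uroplakin-1b, was not taken by the choice of genes (chromosome 11, 63702834 to 63702893, rn4). It was well above background on testosterone replicate 2 alone, at -5.13. The level was -7.79 on testosterone replicate 1, and -7.80 and -7.94 on the control arrays.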

How the results depend on the processing

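Every alternative that used 4 arrays gave 0 genes called by limma. Leaving out 1 array gave 0 to 32 genes called higher and 0 to 2 called lower, all of them without control replicate 2, and none of the 10 marker genes was among them. The count of 5 marker genes higher on both number 2 arrays included Cdh1, which entered through the arrays numbered 2 alone. That count is a description, since this difference chose the genes. It was 3 without columns 57 to 85, which hold the Upk1b and Krt19 probes, beside 40.7% of all genes. With normexp and quantile normalization it was 4 (28.5% of all genes), and among genes detected on all arrays 4 (38.2%). It was 7 with no detection filter (31.4%), and 5 to 6 when 1 array was left out (46.6% to 53.4%). Leaving out 1 array unbalances the array numbers, and the testosterone difference then ran from -2.35 to 1.94 for Msln, from -2.25 to 2.25 for Wfdc21, from -0.82 to 1.01 for Upk1b, from -0.12 to 0.42 for Lrrn4 and from -0.0853 to 1.34 for Krt19, and from 0.48 to 2.38 for Krt18, with no call. The replicate number as a block gave the same differences and called 0 genes, with 616 at an unadjusted p under 0.05 against 174. Under that block Msln differed by -0.20 (-0.68 to 0.27) and Krt18 by 1.43 (0.23 to 2.64), each with an adjusted p of 1.00 in limma. Same-numbered arrays deviated together (correlation 0.589 over 24488 probes), but no label ties a number to 1 culture, and pairing was not assumed. Normexp with quantile normalization gave the smallest differences by number for Msln, Wfdc21, Upk1b, Krt19 and Cdh1 among the alternatives with 4 arrays, and the cause was not tested. Values near the detection limit (Msln on number 1, Cdh1, Krt18) are the least precise.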

Other observations

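A probe named RGD1561232_predicted, described in the files as similar to keratin 8, was well above background on all 4 arrays, at 0.26 and 0.35 with testosterone and 0.34 and 0.23 in control (chromosome 11, 64864619 to 64864678, rn4), and like Krt8 it did not part by array number. A probe described as similar to uroplakin 3B isoform b, without the name Upk3b, read between -7.83 and -7.15, below the detection limit on every array. Tm4sf5, a tetraspanin-like membrane protein of the mesothelial list, was well above background on testosterone replicate 2 alone, at -2.42, against -6.42 on testosterone replicate 1 and -6.19 and -5.86 on the control arrays.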
